A study of Mus musculus with 18 samples.

Results

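Selenoprotein genes are genes whose messages contain a UGA codon that is read as selenocysteine (Sec) rather than as a stop. The 10 genes described here are Gpx1, Gpx4, Txnrd1, Selenow, Selenof, Selenok, Selenot, Selenos, Selenoh and Sephs2, which were chosen by symbol and found through their Ensembl identifiers. They are 10 of 51467 genes in a table of read counts, and the 14 other mouse selenoprotein genes are used as a comparison. The counts come from polysome profiling of mouse embryonic stem cells (ESCs), in which messages are separated on a sucrose gradient by the number of ribosomes they carry. WT cells were V6.5 ESCs, and Dgcr8 KO ESCs are a published line that lacks DGCR8, a protein needed to process primary microRNA transcripts. Both genotypes were grown with serum, LIF and the 2i inhibitors and were exposed to cycloheximide (100 ug/ml, 2 minutes), which arrests ribosomes on their messages. Lysates ran through sucrose of 10 to 50%, and each gradient gave a monosome fraction with 1 ribosome per message, a low polysome fraction with 2 to 4 and a high polysome fraction with 4 or more. There were 3 gradients per genotype and therefore 18 libraries in 6 groups of 3. The KO is 1 line, and nothing states that the 3 gradients came from separate cultures, so the p-values measure the spread between these gradients.

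Selenocysteine is inserted where a hairpin in the 3′ UTR, the SECIS element, recruits its binding protein, a dedicated elongation factor and a tRNA charged with Sec. Ribosomes decode UGA as Sec inefficiently, so some stop there, and a UGA that lies well upstream of an exon junction can expose a message to nonsense-mediated decay when it is read as a stop. The family includes peroxidases and reductases that use the reactive selenium atom, proteins of the endoplasmic reticulum (ER), and Sephs2, which makes the selenium donor for Sec synthesis itself.

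The Sec codon lies near the beginning or in the interior of the coding sequence (CDS) in 7 of the 10 genes and 1 or 2 codons before the stop codon in the other 3. Each stretch below is shown because it holds the recoded codon. It is the coding strand 5′ to 3′ with 12 bases on each side, the UGA is written TGA in capitals, and the stretches of Txnrd1, Selenok and Selenos end with their stop codon.
Gpx1: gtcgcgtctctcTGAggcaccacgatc
Gpx4: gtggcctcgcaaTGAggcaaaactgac
Selenow: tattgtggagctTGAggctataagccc
Selenoh: cattgtacgagcTGAcgcgtgtacggc
Selenof: gaagtctgcggaTGAaaattggggagg
Selenot: atttgtgtatccTGAgggtaccggcgg
Sephs2: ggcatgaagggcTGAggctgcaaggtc
Txnrd1: cagtctggctgcTGAggttaa
Selenok: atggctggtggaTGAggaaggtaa
Selenos: tcatctggcggcTGAaactaa

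On GRCm38 these codons are exonic, at chr9:108339451-108339453 (plus strand, codon 47 of 201) in Gpx1, chr10:80054737-80054739 (plus, codon 73 of 197) in Gpx4 and chr7:15920464-15920466 (minus, codon 13 of 88) in Selenow. The codon of Selenoh is at chr2:84670381-84670383 (minus, codon 38 of 116), that of Selenof at chr3:144590645-144590647 (plus, codon 93 of 162) and that of Selenot at chr3:58585238-58585240 (plus, codon 49 of 195). Sephs2 has its Sec codon at chr7:127273731-127273733 (minus, codon 63 of 452). The late Sec codons are at chr10:82896037-82896039 (plus, codon 498 of 499) in Txnrd1, chr14:29973440-29973442 (plus, codon 92 of 94) in Selenok and chr7:66088844-66088846 (plus, codon 189 of 190) in Selenos. In Selenow and Sephs2 the codon that ends the CDS is also TGA, so the same triplet is read as Sec at one place and as stop at another.

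The 10 genes also differ in what follows the Sec codon. An exon junction lies 78 to 470 nt downstream of it in 6 of them: 78 nt in Selenof, 105 nt in Gpx1, 136 nt in Selenoh, 243 nt in Selenow, 342 nt in Gpx4 and 470 nt in Selenot. In Txnrd1 and Selenos the Sec codon is in the last exon, in Selenok the last junction is 5 nt away, and Sephs2 is a gene of 1 exon. The last junction of Selenow and of Selenot falls in the 3′ UTR.

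**Figure D1:**
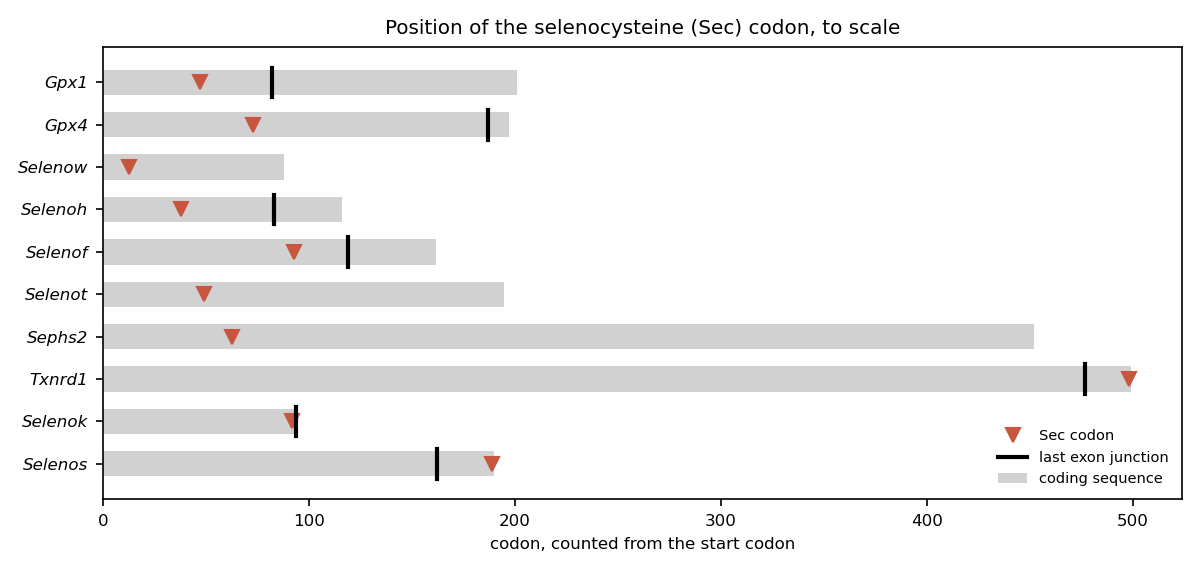
Coding sequences of the 10 selenoprotein genes, drawn to scale in codons (x axis), with the Sec codon (triangle) and the last exon junction (black line; not drawn where it lies beyond the CDS, in Selenow and Selenot, or where there is none, in Sephs2). The Sec codon sits at codon 13 to 93 in 7 genes and within 2 codons of the end in Txnrd1, Selenok and Selenos.

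All 10 genes passed the filter of at least 3 CPM (reads scaled to a common library total) in 3 libraries and were among the 12851 genes tested. The CPM levels printed below were scaled to library totals multiplied by TMM factors, which adjust for composition. These factors were 0.87 to 0.90 in KO high polysomes and 1.03 to 1.07 in WT high polysomes. Library totals ran from 1151649 to 4984833 counts and were lowest in WT monosomes. Dgcr8 reads remained in the KO libraries, and its log2 difference from WT was -1.01 ± 0.23 (SE) in high polysomes, -0.45 ± 0.17 in low polysomes and -0.56 ± 0.19 in monosomes. The 8 markers of naive ESCs summed to 2388 to 3194 CPM in KO and 2398 to 3792 CPM in WT libraries, and 4 formative epiblast markers to 76.6 to 122 CPM in KO and 99.1 to 146 CPM in WT. Of the latter, Pou3f1 was called lower in KO cells in every fraction (-2.20 to -3.36), and the other 2 that were tested were not called. The sum of 5 primitive endoderm markers was 0.777 to 5.53 CPM in KO (median 2.65) and 2.68 to 8.19 CPM in WT (median 6.70), and that of 6 fibroblast markers was 5.75 to 26.4 CPM in KO (median 6.41) and 9.87 to 16.8 CPM in WT (median 14.8). Of the 8 naive markers, 1 was called lower in KO high polysomes (lowest of the list -1.42) and 0 in the other fractions. For the change of the high polysome to monosome ratio 1 of these was called lower (lowest -1.77), as for the high to low polysome ratio. The 1 endoderm marker tested was called lower in low (-1.93) and high polysomes (-2.71), but not in monosomes (-1.62). Of 3 fibroblast markers tested, 2 were called lower in high polysomes and 1 in each other fraction. The part of these cell types in the results was not tested. A CPM value is relative to the other messages of its fraction. Within 1 fraction, less message in the cell and a shift to other fractions therefore cannot be told apart. Unfractionated RNA was not analysed here.

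**Figure D2:**
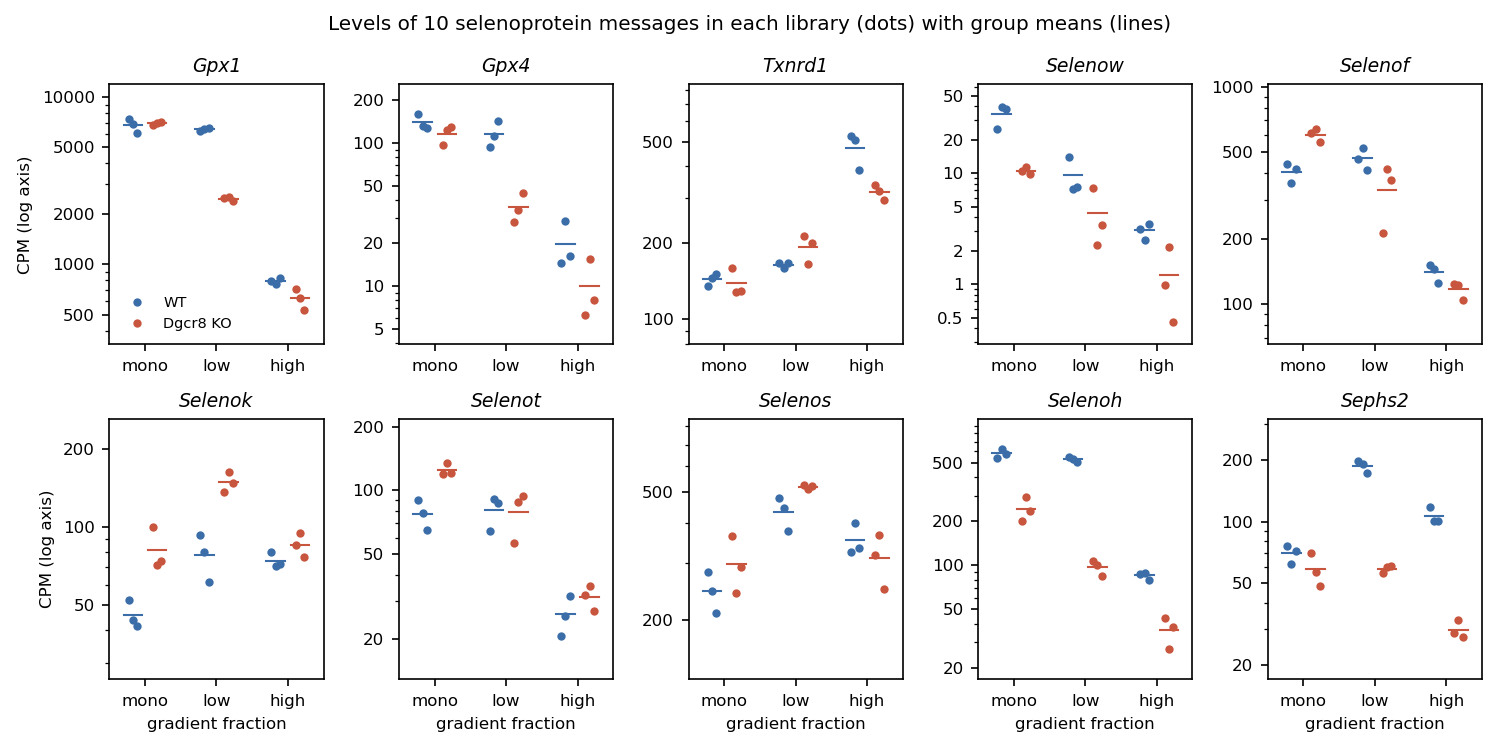
Levels of the 10 selenoprotein messages (y axis, CPM on a log axis, scaled per gene) in monosome, low polysome and high polysome libraries of WT (blue) and Dgcr8 KO (red) cells. Dots are the 3 libraries of a group and lines are their means; in low polysomes the KO libraries lie below all WT libraries for Gpx1, Gpx4, Selenoh and Sephs2, as they do for 28.4% of all genes tested.

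To ask how loss of DGCR8 changed these messages, KO was compared with WT within each fraction by limma-voom, and a call required a log2 difference over 1 in size together with an adjusted p under 0.05. All calls among the 10 genes were in the lower direction. In low polysomes 5 fell (Gpx1, Gpx4, Selenow, Selenoh and Sephs2), against 25% of all genes tested called in either direction and 13.6% called lower. In high polysomes 4 fell (Gpx4, Selenow, Selenoh and Sephs2), where 33.1% of all genes were called and 17.9% were lower. In monosomes 2 fell (Selenow and Selenoh), where 18.1% were called and 9.63% were lower. The median log2 difference of the 10 genes was -0.86 in low polysomes, where that of all genes was 0.00. It was -0.46 in high polysomes against -0.08 and -0.01 in monosomes against -0.05. Most of the 10 genes have a short CDS, and against genes of like CDS length the low polysome difference was lower for 5 and higher for 5, as described further on. Without the fold threshold 7 genes passed in low polysomes (6 lower, 1 higher), where 52.3% of all genes did, and 6 in high polysomes, all lower, where 60.7% did. In monosomes 5 passed, where 37.3% of all genes did, and 3 of them (Selenof, Selenok and Selenot) were higher.

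**Figure D3:**
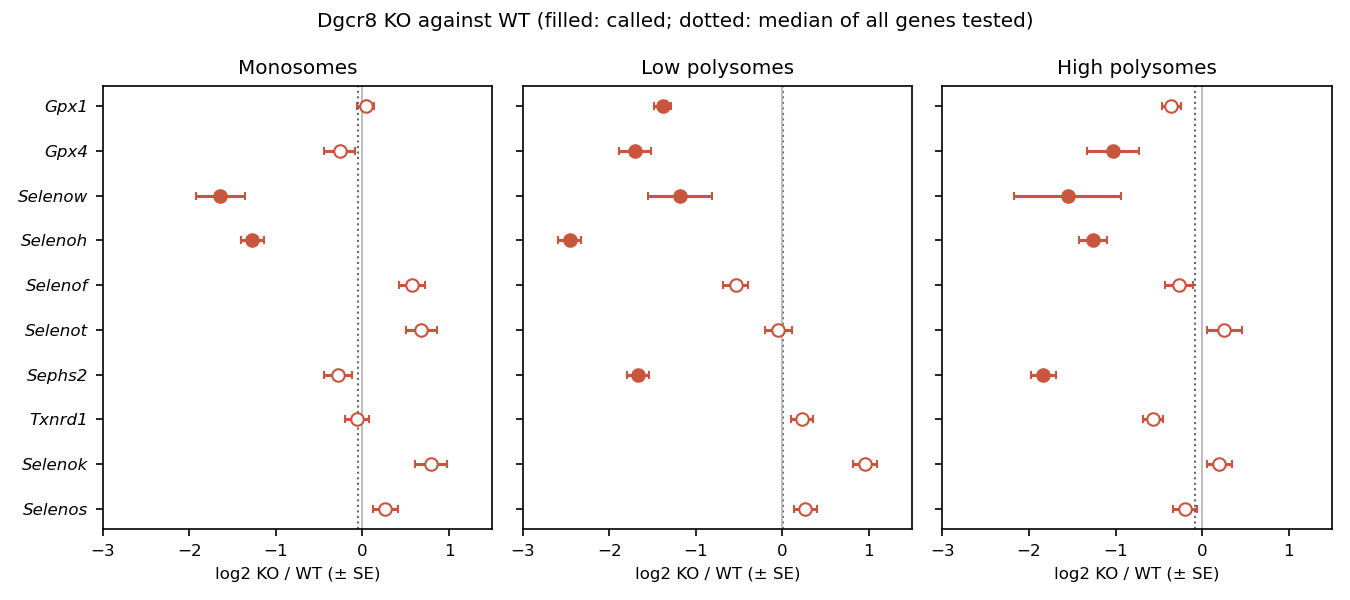
Log2 difference of Dgcr8 KO from WT (x axis, ± SE, 3 libraries a group) for each selenoprotein gene in each of the fractions; filled points are called, open points are not, and the dotted line is the median of all genes tested. Gpx1 was near 0 in monosomes and at -1.38 in low polysomes, and Sephs2 went from -0.28 to -1.66.

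The 2 glutathione peroxidases were lower in KO low polysomes and not in monosomes. Gpx1, which reduces hydrogen peroxide in the cytosol, had 6286, 6407 and 6545 CPM in WT low polysomes and 2483, 2514 and 2384 CPM in KO low polysomes. Its monosome levels were 7420, 6857 and 6104 CPM in WT and 6780, 7022 and 7091 CPM in KO cells. The low polysome groups were far apart and the monosome groups overlapped. The low polysome level was 2.61-fold lower (log2 -1.38 ± 0.10 SE, n = 3 against 3, limma adjusted p = 2.71e-15), whereas monosomes differed by 0.04 ± 0.10. In high polysomes Gpx1 had 789, 763 and 821 CPM in WT and 712, 628 and 531 CPM in KO cells, which did not overlap but fell short of the fold threshold (-0.36 ± 0.11, adjusted p = 0.0042).

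Gpx4, which reduces lipid hydroperoxides in membranes and protects cells from ferroptosis, was much less frequent in the counts. WT low polysomes held 94.5, 113 and 143 CPM and KO low polysomes 28.3, 34.3 and 44.9 CPM. Every KO library was below every WT library, and the level was 3.25-fold lower (-1.70 ± 0.18, adjusted p = 2.77e-10). In high polysomes the WT libraries had 14.4, 28.5 and 16.2 CPM and the KO libraries 6.28, 15.5 and 8.04 CPM, which overlapped. The high polysome call (-1.03 ± 0.30, adjusted p = 0.0031) sat at the threshold: it was lost with edgeR (-0.995), DESeq2 (-0.98) or limma-trend (-0.97), and without WT gradient 2 (-0.71), KO gradient 1 (-0.81) or KO gradient 3 (-0.90). Monosome libraries overlapped, with 161, 132 and 128 CPM in WT and 97.3, 123 and 129 CPM in KO cells (-0.26 ± 0.17). The annotation names a processed pseudogene after Gpx4, with 2 to 66 reads per library; only uniquely mapped reads were counted, and how many reads of the gene were lost to or gained from its copy was not measured, so the counts of Gpx4 are uncertain.

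Selenow and Selenoh, small proteins with a thioredoxin-like fold, were the 2 genes called lower in all 3 fractions. Selenoh, a nuclear protein, had 545, 622 and 579 CPM in WT monosomes and 201, 293 and 235 CPM in KO monosomes. In low polysomes it had 551, 534 and 508 CPM in WT and 106, 100 and 84.9 CPM in KO cells. High polysomes held 87.8, 89.0 and 79.6 CPM in WT and 44.0, 26.7 and 37.7 CPM in KO cells. The genotypes did not overlap in any fraction, and the gap was widest in low polysomes. Selenoh was 2.41-fold lower in monosomes (-1.27 ± 0.13, adjusted p = 2.77e-10), 5.49-fold lower in the low polysome fraction (-2.46 ± 0.13, adjusted p = 1.01e-18) and 2.40-fold lower in high polysomes (-1.26 ± 0.16, adjusted p = 8.45e-09).

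Selenow was the rarest of the 10 messages in the counts, with 2 to 61 reads per library. Its WT monosome libraries held 24.8, 39.4 and 38.0 CPM and its KO monosome libraries 10.6, 11.3 and 9.79 CPM. These did not overlap, and the level was 3.12-fold lower (-1.64 ± 0.29, adjusted p = 1.4e-05). In low polysomes WT had 14.1, 7.25 and 7.53 CPM and KO 7.38, 2.24 and 3.42 CPM, which overlapped (-1.18 ± 0.37, adjusted p = 0.0064); the call was lost without WT gradient 1 (-0.91) or KO gradient 2 (-0.86). In high polysomes WT had 3.12, 2.52 and 3.50 CPM and KO 0.992, 2.17 and 0.460 CPM (-1.55 ± 0.62, adjusted p = 0.0287). The 3 KO libraries held 12 reads in sum, and the call was lost without KO gradient 3 (-0.96), without WT gradient 3 (-1.45) and with no filter on low counts (-1.52).

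Sephs2, the selenophosphate synthetase, was lower in both polysome fractions and not called in monosomes. WT low polysomes held 197, 192 and 173 CPM against 56.2, 59.9 and 60.4 CPM in KO cells. WT high polysomes held 117, 100 and 101 CPM against 28.8, 33.2 and 27.3 CPM. In monosomes the values were 76.3, 62.0 and 71.6 CPM in WT and 70.0, 57.1 and 48.6 CPM in KO cells. The polysome groups were separated by more than their whole spread and the monosome groups overlapped. Sephs2 was 3.17-fold lower in low polysomes (-1.66 ± 0.13, adjusted p = 3.05e-14) and 3.57-fold lower in high polysomes (-1.84 ± 0.15, adjusted p = 6.17e-14), with -0.28 ± 0.16 in monosomes (adjusted p = 0.162).

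The 4 ER proteins and the cytosolic thioredoxin reductase were not called in any fraction. Selenok, an ER membrane protein, had 93.4, 80.1 and 61.4 CPM in WT low polysomes and 137, 163 and 149 CPM in KO low polysomes. All KO libraries were above all WT libraries, by 0.95 ± 0.14 (adjusted p = 2.04e-07), just under the fold threshold, and the difference passed it without WT gradient 1 (1.09) or KO gradient 1 (1.02). Its monosome libraries did not overlap either, with 52.2, 43.9 and 41.6 CPM in WT and 101, 71.4 and 74.0 CPM in KO cells (0.79 ± 0.18, adjusted p = 0.00066). Selenos, which takes part in removing misfolded proteins from the ER, had 377 to 480 CPM in WT and 510 to 524 CPM in KO low polysomes, a separation of 0.26 ± 0.13 that did not pass the test (adjusted p = 0.0909).

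Selenof, which binds the glycoprotein folding sensor of the ER, had 359 to 441 CPM in WT and 554 to 639 CPM in KO monosomes (0.57 ± 0.15, adjusted p = 0.0026). In low polysomes it had 466, 521 and 415 CPM in WT and 213, 416 and 372 CPM in KO cells, which overlapped (-0.54 ± 0.15, adjusted p = 0.0021). Selenot, an ER membrane protein with a thioredoxin-like fold, was at 65.4 to 89.7 CPM in WT and 119 to 135 CPM in KO monosomes (0.68 ± 0.18, adjusted p = 0.0021), and at -0.05 ± 0.16 in low polysomes. Txnrd1, which keeps thioredoxin reduced, had 523, 509 and 387 CPM in WT high polysomes and 337, 319 and 293 CPM in KO high polysomes. These groups did not overlap, at -0.57 ± 0.12 (adjusted p = 7.41e-05), and Txnrd1 differed by -0.06 ± 0.14 in monosomes and 0.22 ± 0.13 in low polysomes. Selenok and Selenot also have annotated processed pseudogenes, with at most 4 reads each in any library, and their counts are uncertain in the same way as those of Gpx4.

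The fractions were then compared within each genotype, with the high polysome to monosome ratio as the translation level. In WT cells 6 of the 10 genes were called lower in high polysomes than in monosomes and 1 was called higher, where 30.1% of all genes were called, 19.3% lower and 10.7% higher. The lower ones were Selenow (-3.38 ± 0.40), Gpx1 (-3.10 ± 0.10), Gpx4 (-2.88 ± 0.23), Selenoh (-2.77 ± 0.14), Selenot (-1.58 ± 0.21) and Selenof (-1.53 ± 0.16). Txnrd1 was higher (1.70 ± 0.13, adjusted p = 3.66e-14). Selenok (0.68 ± 0.18), Sephs2 (0.60 ± 0.15) and Selenos (0.52 ± 0.14) were on the positive side without reaching the fold threshold, with adjusted p of 0.0023 or less. In each gradient, Gpx1 gave log2 ratios of -3.23, -3.17 and -2.89 in WT and Txnrd1 gave 1.95, 1.80 and 1.35. In the order from Selenow to Selenoh, and between Selenot and Selenof, neighbouring values differed by less than the sum of their standard errors.

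The 6 genes called lower were those with an exon junction 78 nt or more downstream of the Sec codon, and the 4 with positive ratios were the 3 with a Sec codon at the end of the CDS and Sephs2, which has no junction. This grouping was made after the values were seen, so it is a description without a test. The 6 genes have a short CDS (88 to 201 codons), as do Selenok (94) and Selenos (190), while Txnrd1 (499) and Sephs2 (452) are longer. Among the other selenoproteins described further on, Gpx2 (102 nt), Gpx3 (240 nt) and Selenom (135 nt) also have such a junction and were called lower. Selenop (357 nt) was negative and not called. Txnrd2 (83 nt) and Selenon (216 nt) have one too and were positive, at 0.30 and 0.77. In KO cells the same 6 of the 10 genes were called lower and Txnrd1 higher, where 43% of all genes were called and 25.5% were lower. The KO values were -3.65 ± 0.26 for Gpx4, -3.49 ± 0.10 for Gpx1, -3.29 ± 0.55 for Selenow, -2.76 ± 0.15 for Selenoh, -2.37 ± 0.15 for Selenof, -2.01 ± 0.18 for Selenot and 1.20 ± 0.13 for Txnrd1. Sephs2 changed side, to -0.95 ± 0.16 (adjusted p = 1.26e-06), and was called lower with library totals (-1.20), with the stricter filter (-1.06) and without KO gradient 2 (-1.03) or 3 (-1.01). The Txnrd1 call was lost with library totals (0.95). The values of Selenok (0.08 ± 0.15) and Selenos (0.06 ± 0.14) came close to 0.

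Low polysomes behaved differently from high polysomes in WT cells. The low polysome to monosome ratio was called for 2 of the 10 genes, higher for Sephs2 (1.42 ± 0.14) and lower for Selenow (-1.88 ± 0.27), where 14.1% of all genes were called. Gpx1 was at -0.08 ± 0.10, Selenoh at -0.13 ± 0.13, Gpx4 at -0.28 ± 0.17, Selenof at 0.21 ± 0.15 and Selenot at 0.04 ± 0.18. These 5 genes thus had low polysome levels that did not pass the test against monosomes, and high polysome levels that were called lower. In KO cells 4 were called lower in low polysomes than in monosomes, Gpx4 (-1.71 ± 0.19), Gpx1 (-1.50 ± 0.10), Selenow (-1.42 ± 0.38) and Selenoh (-1.32 ± 0.14), where 16.8% of all genes were called and 10.5% were lower. Without KO gradient 2 Selenow was at -1.04 and no longer called, and Selenof was called lower (-1.04), as it was without KO gradient 3 (-1.07). Without KO gradient 1 Selenok was called higher (1.09).

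**Figure D4:**
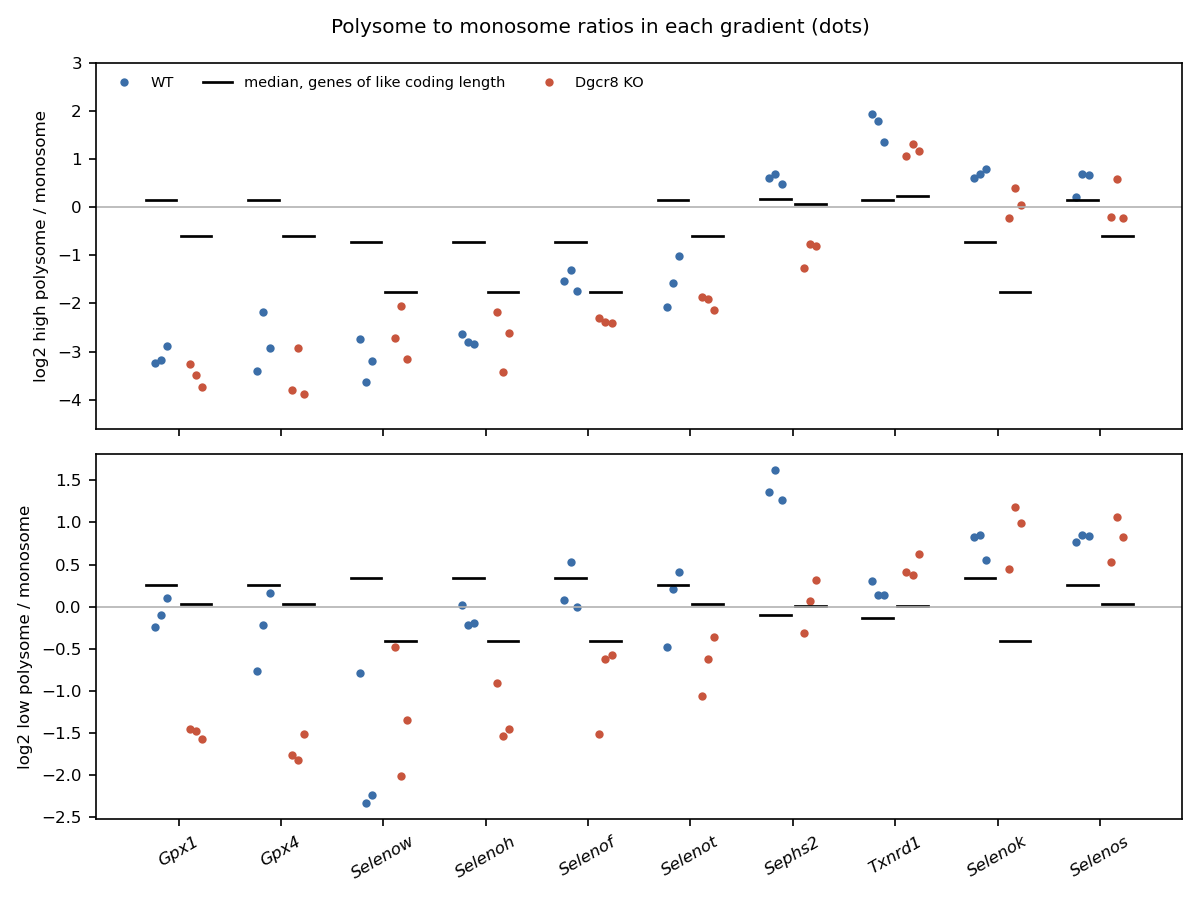
Log2 ratio of high polysomes to monosomes (top) and of low polysomes to monosomes (bottom) for each selenoprotein gene in the 3 WT (blue) and 3 Dgcr8 KO (red) gradients. Black lines are medians of protein-coding genes in the same decile of CDS length; the KO gradients of Gpx1, Gpx4, Selenof, Selenoh and Sephs2 lie below their WT gradients in the lower panel.

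Without the fold threshold 4 genes passed for this ratio in WT and 9 in KO cells, where 37.1% and 45% of all genes did. For high against low polysomes in KO cells all 10 passed, where 56% of all genes did.

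Whether these ratios changed between the genotypes was tested with the interaction of genotype and fraction. The low polysome to monosome ratio was lower in KO cells for 5 of the 10 genes, where 5.03% of all genes were called and 3.81% were lower. They were Gpx4 (-1.43 ± 0.25, adjusted p = 7.22e-05), Gpx1 (-1.42 ± 0.14, adjusted p = 1.62e-09), Sephs2 (-1.38 ± 0.20, adjusted p = 3.3e-06), Selenoh (-1.19 ± 0.19, adjusted p = 9.91e-06) and Selenof (-1.11 ± 0.21, adjusted p = 0.00021). The median of the 10 genes was -0.92, and that of all genes was 0.06. By gradient, Gpx1 had log2 ratios of -0.24, -0.10 and 0.10 in WT and -1.45, -1.48 and -1.57 in KO cells. Sephs2 had 1.36, 1.62 and 1.27 in WT and -0.31, 0.07 and 0.31 in KO cells. Selenof had 0.08, 0.54 and -0.01 in WT and -1.52, -0.62 and -0.57 in KO cells. The genotypes did not overlap for any of the 5, as for 15.1% of all genes in this direction, and the Selenof call was lost without KO gradient 1 (-0.80). Selenot, at -0.73 ± 0.24 (adjusted p = 0.0373), was under the fold threshold. Txnrd1 (0.29 ± 0.19), Selenok (0.16 ± 0.23), Selenos (0.00 ± 0.20) and Selenow (0.46 ± 0.47) did not pass the test.

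The translation level changed for 1 of the 10 genes. Sephs2 had log2 high polysome to monosome ratios of 0.62, 0.69 and 0.49 in WT and -1.26, -0.77 and -0.81 in KO cells, and the change was -1.55 ± 0.22 (adjusted p = 5.31e-07), where 15.1% of all genes were called and 8.81% were lower; the gradients did not overlap in this direction for 21.4%. The other values ran from -0.84 ± 0.22 in Selenof (adjusted p = 0.0036) and -0.77 ± 0.35 in Gpx4 (adjusted p = 0.096) to 0.01 ± 0.21 in Selenoh and 0.08 ± 0.68 in Selenow. With library totals in place of TMM scaling, which moved the median of all genes by -0.33, Gpx4 (-1.09) and Selenof (-1.16) also passed. The high to low polysome ratio, which shares the low polysome libraries with the previous comparison, was higher in KO cells for Selenoh (1.19 ± 0.21, adjusted p = 8.13e-05) and Gpx1 (1.03 ± 0.14, adjusted p = 4.91e-06), where 5.18% of all genes were called, 2.29% higher. The gradients of both genes did not overlap, as for 16.1% of all genes in this direction. Both were under the fold threshold with library totals, at 0.99 and 0.83, and Gpx1 also without KO gradient 1 (0.93). Selenok (-0.76 ± 0.20) and Txnrd1 (-0.79 ± 0.17) had adjusted p of 0.0062 and 0.0011 in the other direction and missed the fold threshold. Without that threshold 4 genes passed for the change of translation level, where 28.2% of all genes did, and 4 for the high to low polysome ratio, where 17.8% did.

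A short CDS holds few ribosomes, and 8 of the 10 genes were in deciles 1 and 2 when 11768 protein-coding genes were ranked from the shortest CDS. Decile 1 covered 25 to 174 codons and decile 2 covered 174 to 244. In WT cells the median translation level was -0.71 in decile 1 and 0.16 in decile 2. Gpx1, Gpx4 and Selenot of decile 2 were below that median by more than 1 log2 unit, as were Selenow and Selenoh of decile 1, whereas Selenok (decile 1, 0.68) and Selenos (decile 2, 0.52) were above it. In KO against WT low polysomes the median was -0.85 in decile 1 and -0.22 in decile 2. Selenoh (-2.46), Selenow (-1.18), Gpx1 (-1.38), Gpx4 (-1.70) and Sephs2 (-1.66) were below the median of their decile and the other 5 were above it, and the median distance of the 10 genes from it was -0.14. In KO against WT high polysomes the median was -1.13 in decile 1 and -0.74 in decile 2. Selenoh (-1.26), Selenow (-1.55), Gpx4 (-1.03), Sephs2 (-1.84) and Txnrd1 (-0.57) were below the median of their decile, whereas Selenof (-0.27), Selenok (0.20), Gpx1 (-0.36), Selenot (0.26) and Selenos (-0.20) were above it, and the median distance was 0.12. The change of the low polysome to monosome ratio had a median of -0.23 in decile 2, against -1.42 in Gpx1 and -1.43 in Gpx4. It was -0.74 in decile 1, against -1.19 in Selenoh and -1.11 in Selenof, and 0.15 in decile 5, which held Sephs2 at -1.38. Of the 10 genes, 6 were below the median of their decile in this comparison. For the change of translation level the median was -0.94 in decile 1 and -0.64 in decile 2. There 3 of the 10 genes were below the median of their decile and 7 were above it, with a median distance of 0.20. The part of CDS length in these values was not tested further.

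Of the 14 other selenoprotein genes 11 were tested, and Dio1, Dio2 and Selenov had at most 2 reads in any library. In WT cells Gpx2 (-2.73), Gpx3 (-2.18) and Selenom (-1.29), with early Sec codons, were called lower in high polysomes than in monosomes, while Selenoi (0.82), Selenoo (0.75), Txnrd3 (0.59) and Txnrd2 (0.30), with a Sec codon within 10 codons of the end, were positive and not called. Over all 21 tested selenoproteins, the 7 with such a late Sec codon had WT translation levels of 0.30 to 1.70, and 11 of the 14 with an earlier one were negative, with a median of -1.56. Exceptions were Sephs2, Dio3 (0.52) and Selenon (0.77), whose Sec codon is at codon 428 of 557. The change of the low polysome to monosome ratio in KO cells was called lower for 8 of the 14 with an earlier codon and for 0 of the 7 with a late codon by limma, where 3.81% of all genes were called lower, so that 0 of 7 is near the background. Of these 7, Selenoo (-1.48) was negative and Selenoi (0.83) positive at an unadjusted p under 0.05. The split at 10 codons was chosen after the values were seen and was not tested. CDS length differed along with Sec position. With a late codon, Selenoi (398 codons), Txnrd1 (499), Txnrd2 (527), Txnrd3 (615) and Selenoo (667) are long, and Selenok (94) and Selenos (190) are short. With an earlier codon, the exceptions Sephs2 (452), Dio3 (304) and Selenon (557) are long, as is Selenop (380), which was negative. The others have 88 to 226 codons. The parts of Sec position and CDS length were not told apart.

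**Figure D5:**
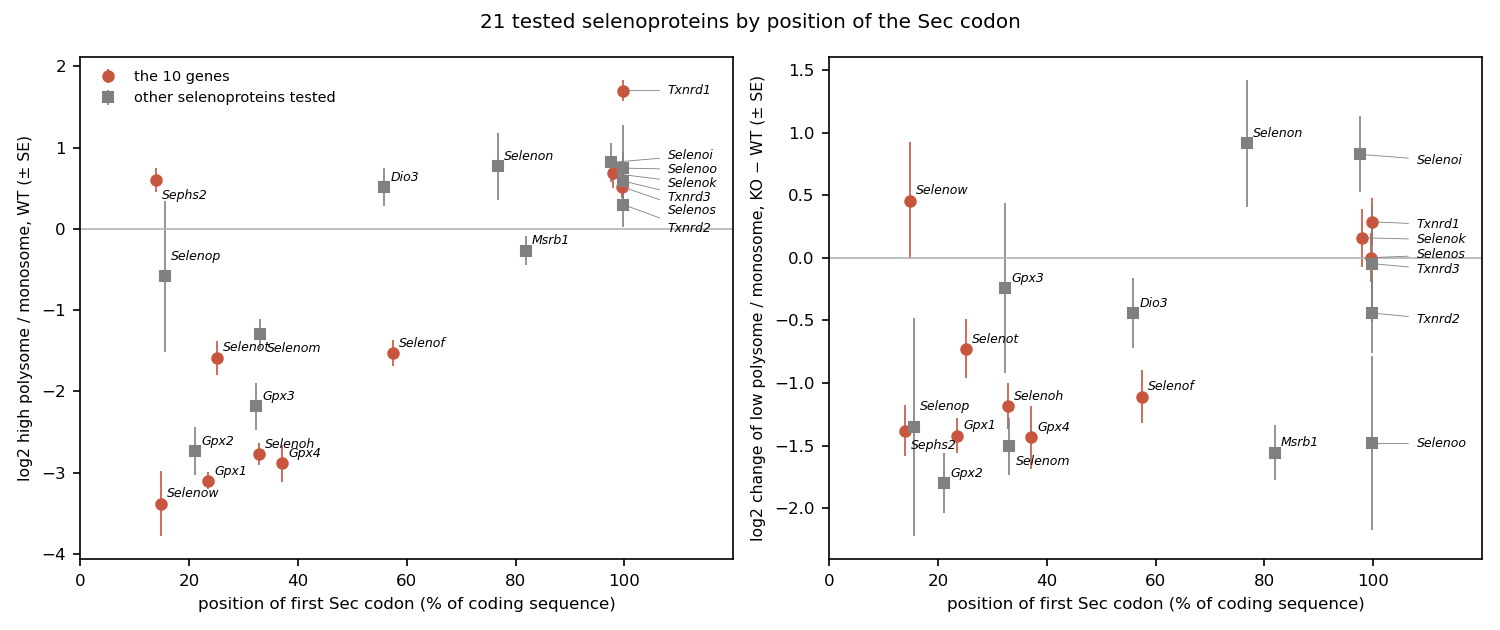
WT translation level (left) and change of the low polysome to monosome ratio in Dgcr8 KO cells (right), both log2 ± SE, against the position of the first Sec codon in percent of the CDS, for the 10 selenoprotein genes (red circles) and 11 other tested selenoproteins (grey squares). The 7 genes with a Sec codon within 10 codons of the end have WT values of 0.30 to 1.70. Selenoo, the lowest of them at the right, is a message with at most 16 reads per library. CDS length also differs between these genes and was not taken into account.

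Among these other selenoproteins, Gpx3, a secreted peroxidase, was lower in all 3 KO fractions. Its log2 difference was -3.09 ± 0.58 in high polysomes, -4.47 ± 0.53 in monosomes and -4.71 ± 0.42 in low polysomes, with 151 to 183 reads in each WT low polysome library and 6 in each KO one. Selenoi, an enzyme of phospholipid synthesis, was higher in KO low polysomes (1.59 ± 0.18) and high polysomes (2.08 ± 0.15). Selenom fell in low (-1.75 ± 0.15) and high polysomes (-1.31 ± 0.22), and so did Msrb1, a methionine sulfoxide reductase (-1.28 ± 0.13 and -1.22 ± 0.19). Txnrd2 was higher in monosomes (1.20) and high polysomes (1.28), Selenon in low (1.03) and high polysomes (1.31), and Txnrd3 in high polysomes (1.09). Selenop was called higher in monosomes and low polysomes, from 0 to 1 and 2 to 6 reads per WT library to 14 to 16 and 14 to 17 reads per KO library. In total 2 rose and 1 fell in monosomes, 3 rose and 3 fell in low polysomes, and 4 rose and 3 fell in high polysomes. These were 3, 6 and 7 of 11 genes, beside 18.1%, 25% and 33.1% of all genes called. The change of translation level was called higher for 1 and lower for 2 of the 11 genes, where 15.1% of all genes were called. It ran from -2.27 to 1.38 over the 11 genes.

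The messages that make and insert Sec were tested as a list of 16 genes, all of which passed the filter. In monosomes 1 rose and 4 fell, in low polysomes 2 fell, and in high polysomes 3 fell, beside 18.1%, 25% and 33.1% of all genes called. The share of the list was thus above that of all genes in monosomes and below it in both polysome fractions. Pstk, the kinase that prepares seryl-tRNA for conversion to Sec, fell in monosomes (-1.36 ± 0.23) and in both low (-2.09 ± 0.22) and high polysomes (-2.37 ± 0.26). Sepsecs, which completes that conversion, was higher in monosomes (1.63 ± 0.28), with a translation level lower by -1.32 ± 0.33. Rpl30, a ribosomal protein that can bind SECIS elements, fell in monosomes (-1.16 ± 0.16) and high polysomes (-1.73 ± 0.19), and Sars, which charges the tRNA with serine, fell in monosomes (-1.34 ± 0.17). Lrp8, a receptor for Selenop, fell in monosomes (-1.35) and low polysomes (-1.11). Trnau1ap, which binds the Sec tRNA, fell in high polysomes (-1.02 ± 0.17), and its translation level was lower by -1.30 ± 0.24, as was that of Pstk by -1.01 ± 0.35. The translation level was thus called lower for 3 of the 16 genes, where 8.81% of all genes were called lower.

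Because Dgcr8 KO cells lack canonical microRNAs, the 3′ UTRs of the annotated principal transcripts were searched for sites of the main ESC microRNA family. Its members below share the seed, bases 2 to 8, which is in capitals (mature sequences from RefSeq, read 5′ to 3′).
mmu-miR-291a-3p: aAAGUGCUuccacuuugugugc
mmu-miR-294-3p: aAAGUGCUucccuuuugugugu
mmu-miR-295-3p: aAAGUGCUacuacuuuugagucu
The motifs were AGCACTT, which pairs with the whole seed, and GCACTTA, which pairs with bases 2 to 7 and ends in A; they overlap where a site has both, and the sense strand of the message was searched. None of the 10 genes had either motif (0 of 10), against 18.4% of 11768 protein-coding genes, whose median 3′ UTR was 937 nt. The 3′ UTRs of the 10 genes ran from 207 nt in Gpx1 to 2468 nt in Selenot, and 7 of them were shorter than that median. Of the other selenoproteins, Txnrd3 and Msrb1 had a motif.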

How the data were processed

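The deposited table gives raw read counts for each gene. Per the labels and the study's methods, the authors sequenced 3′ ends with QuantSeq, trimmed reads with cutadapt 1.14, aligned them to mm10 with STAR 2.5.3a, kept reads that mapped to 1 place, and counted them over GENCODE M14 exons with featureCounts 1.5.3. The deposited table also lists a gene length, which was not used to scale counts. A read comes from the end of a message, so counts do not grow with its length. No step on molecular identifiers is stated, so PCR copies count as reads.

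Counts of 51467 genes, without 92 spike-in entries, were filtered at 3 CPM in 3 libraries, which left 12851 genes, and were fitted with limma-voom (limma 3.58.1, R 4.3.3) with TMM factors (edgeR 4.0.16), 6 group means and without a block. P-values are two-sided and adjusted by the Benjamini-Hochberg method over all genes tested, and interactions tested changes of ratios between genotypes. Limma, the CPM filter and the interaction term are taken from the study's methods. Ratios within a gradient were computed on log2 CPM after TMM scaling, with 2 as the prior count. The scripts were tested on simulated data. Levels resting on fewer than 3 counts in a library, as for Selenow in KO high polysome gradient 3, are printed as measured and lie under the limit that a count of 0 allows (3 counts).

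The 10 genes and the other lists were chosen with earlier results of these data known. The rule named all 10 genes and Dgcr8 always and, from each list, up to 5 called genes with the largest change in each of 4 comparisons, KO against WT per fraction and the change of translation level. As an exception to this rule, calls for the change of translation level among the other selenoproteins are given as counts only. Libraries of a group differed by more than sampling noise (chi-square per gene of 1.92 to 7.32). Gene models, Sec codons and CDS lengths are from GENCODE M21 on GRCm38, the same build as mm10, for APPRIS principal transcripts. No deposited gene overlapped the 10 genes on the same strand. Alternatives were edgeR's quasi-likelihood test, DESeq2 1.42.0, its size factors, library totals, other filters, the compared libraries alone, limma-trend, a replicate block, no fold threshold, a prior count of 0.5 and leaving out each gradient.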

Additional observations from a re-analysis of the deposited data

Results flagged for a closer look

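The effect of the genotype differed between fractions, by the test of the interaction, for 8 of the ratios of the 10 selenoprotein genes. The low polysome to monosome ratio was lower in Dgcr8 KO cells for Gpx1 (-1.42), Gpx4 (-1.43), Selenof (-1.11), Selenoh (-1.19) and Sephs2 (-1.38). The high polysome to monosome ratio was lower for Sephs2 (-1.55). The high to low polysome ratio was higher for Gpx1 (1.03) and Selenoh (1.19). In all 8 the 3 KO gradients lay outside the range of the 3 WT gradients, on the side of the change. For these ratios, in the order given, 15.1%, 21.4% and 16.1% of all genes did so in the same direction. In that direction 3.81%, 8.81% and 2.29% of all genes were called. The high to low polysome ratios of Gpx1 and Selenoh share low polysome libraries with their low polysome to monosome ratios, so the 8 are not independent.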

How the results depend on the processing

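Calls among the 10 genes kept their direction under every alternative run, and the reversed values below belong to differences that were not called. These differences were not all near 0: the high to low polysome change was -0.37 ± 0.72 in Selenow and 0.27 ± 0.22 in Selenof. Library totals in place of TMM gave 3 calls instead of 1 for the change of translation level and 0 instead of 2 for the high to low polysome ratio. Without a fold threshold, 5 genes passed (3 higher and 2 lower) for KO against WT in monosomes, 4 for the change of translation level, 4 for the change of the high to low polysome ratio, 4 for low polysomes against monosomes in WT, 9 for the same in KO and 10 for high against low polysomes in KO. Leaving out 1 gradient gave 2 to 4 calls in KO against WT high polysomes (2 without KO gradient 3), 1 to 2 for the change of translation level (2 without WT gradient 1 or KO gradient 2, both adding Gpx4) and 1 to 2 for the change of the high to low polysome ratio (1 without KO gradient 1).

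In the replicate block, libraries of the same number shared a term for KO against WT. For ratios and their changes, each gradient had a term of its own. The block changed no call and left the count in low polysomes at 5. Fractions of 1 gradient deviated together weakly (r = 0.032 to 0.14 over 18 pairs), and libraries of the same number and fraction in both genotypes had r of 0.00018 to 0.10 over 9 pairs (median 0.0545), against a median of -0.0144 for other numbers over 18 pairs. Not every pair was above 0.1 and no label ties a number to a shared day, so the numbers were not taken to pair the genotypes. The block with a term for each gradient turned the sign of the Selenos low polysome to monosome change (0.00 to -0.0052). That change was also negative with edgeR (-0.021), DESeq2 (-0.052), DESeq2 size factors (-0.026), library totals (-0.13), limma-trend (-0.013), no filter (-0.025) and the stricter filter (-0.030). It ran from -0.13 to 0.14 over left-out gradients.

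Library totals also reversed the change of translation level in Selenoh (-0.32) and Selenow (-0.26), high polysomes against monosomes in KO cells for Selenok (-0.16) and Selenos (-0.19), low polysomes against monosomes in KO cells for Sephs2 (-0.040), and KO against WT for Selenok in high polysomes (-0.029) and Txnrd1 in monosomes (0.041). The stricter filter reversed Selenoh (-0.022), Selenok (-0.027), Selenos (-0.050) and Sephs2 (-0.022) in those comparisons, no filter reversed Selenoh (-0.060), and limma-trend reversed the high to low polysome change of Selenow (0.042). Over left-out gradients, KO against WT ran from -0.034 to 0.11 for Gpx1 and -0.16 to 0.0087 for Txnrd1 in monosomes and from -0.20 to 0.18 for Selenot in low polysomes. The change of translation level ran from -0.35 to 0.62 for Selenow and -0.25 to 0.34 for Selenoh, and that of the high to low polysome ratio from -1.19 to 0.12 for Selenow and -0.064 to 0.46 for Selenof. In KO cells high polysomes against monosomes ran from -0.080 to 0.22 for Selenok and -0.21 to 0.21 for Selenos, and low polysomes against monosomes from -0.11 to 0.19 for Sephs2. In WT cells low polysomes against monosomes ran from -0.17 to 0.000275 for Gpx1 and -0.13 to 0.30 for Selenot, and high against low polysomes from -0.20 to 0.029 for Selenok. The cause of these reversals was not tested. Depth limits Selenow most, with 2 to 7 reads per library in KO high polysomes.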

Other observations

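Enzymes of the thioredoxin and glutathione systems that contain no Sec were tested as a list of 25 genes, of which 23 passed the filter. In KO against WT, 1 rose in monosomes, 1 rose and 3 fell in low polysomes, and 2 rose and 4 fell in high polysomes, beside 18.1%, 25% and 33.1% of all genes called. Txn1, the thioredoxin that Txnrd1 reduces, fell in high polysomes (-1.81 ± 0.14), and its translation level was lower in KO cells by -1.43 ± 0.20. Txn2, its mitochondrial counterpart, fell in low (-1.24 ± 0.14) and high polysomes (-1.15 ± 0.17), as did the glutaredoxin Glrx (-1.37 ± 0.19 and -1.65 ± 0.27). Srxn1, which repairs oxidised peroxiredoxins, fell in low polysomes (-1.48 ± 0.16), and the peroxiredoxin Prdx5 in high polysomes (-1.18 ± 0.16). Msrb2, a methionine sulfoxide reductase without Sec, rose in monosomes (2.64 ± 0.29) and low polysomes (1.16 ± 0.17), and Gpx7 (1.01 ± 0.18) and Gpx8 (1.01 ± 0.36), ER peroxidases without Sec, rose in high polysomes. The translation level was lower for 4 genes, Msrb2 (-1.92 ± 0.36), Txn1, Glrx2 (-1.27 ± 0.21) and Prdx5 (-1.09 ± 0.24), where 8.81% of all genes were called lower. Genes with a short CDS fell in general. The median change of translation level was -0.94 in decile 1 of CDS length and -0.64 in decile 2. In high polysomes the medians were -1.13 and -0.74. The part of CDS length in this list was not tested.

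Partners of the ER selenoproteins in glycoprotein folding and degradation were a list of 10 genes, all tested. In high polysomes 4 rose in KO cells (33.1% of all genes were called in either direction), Sel1l (1.74 ± 0.12), Uggt2 (1.54 ± 0.34), Syvn1 (1.46 ± 0.15) and Uggt1 (1.27 ± 0.12). The translation level rose for Syvn1 (1.22 ± 0.22), Uggt1 (1.17 ± 0.18) and Sel1l, where 15.1% of all genes were called in either direction. Genes with a long CDS rose in general. From decile 7 to decile 10 of CDS length the median rose from 0.16 to 0.65 in high polysomes. For the change of translation level it rose from 0.21 to 0.62. The deciles of the listed genes are not given here. The part of CDS length in this list was not tested. Uggt2 also rose in low polysomes (1.10 ± 0.32), and Herpud1, which acts in ER degradation, fell in monosomes (-1.50 ± 0.20). Uggt1 and Uggt2 encode the folding sensors that Selenof binds, and Sel1l and Syvn1 the membrane complex for ER degradation with which Selenos acts. Of 11 genes of lipid peroxidation and the NRF2 response 9 were tested, and Hmox1 fell in monosomes (-1.39 ± 0.29) and high polysomes (-1.12 ± 0.16), the only called gene of that list in KO against WT.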
